A study of Mus musculus with 6 samples.

Results

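The integrin subunits described here are 10 genes of the mouse distal convoluted tubule cell line mDCT15, of 20624 genes with a row in the deposited table. They are the alpha-v subunit *Itgav*, its beta partners *Itgb1*, *Itgb3*, *Itgb5*, *Itgb6* and *Itgb8*, and the epithelial laminin and collagen receptor subunits *Itga2*, *Itga3*, *Itga6* and *Itgb4*. They were chosen by gene name, and the list was drawn up with the authors' own fold change of *Itgb6* in view, a value that is neither used nor tested here. RNA was sequenced after depletion of ribosomal RNA from 3 *Pkd1*-/- and 3 wild type samples. The *Pkd1*-/- cells had been made from mDCT15 by CRISPR/Cas9 editing. Their titles give Pkd1-/- while the genotype field calls them a knockdown, and whether they are a single clone is not given in the sources used here. All samples were grown in the same serum-containing medium, with no further treatment named in the labels.

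The value analysed for each gene is the authors' mean normalized count over all 6 samples, which are both genotypes together. It carries no spread and no error. Neither the values nor the depth of the separate samples were analysed here, so the precision of a mean is unknown. No difference between *Pkd1*-/- and wild type cells is therefore reported, and a gene that differs between the genotypes has a pooled level that may match neither. A count rises with the length of a gene, so levels were compared between genes only after division by the length of all its exons in kilobases. This quantity, the mean normalized count per kilobase, had a median of 28.6 over the 20122 genes with an annotated length, and the percentiles below rank genes on it.

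Integrins are cell surface receptors made of 1 alpha and 1 beta subunit, which bind matrix proteins outside the cell and the actin or keratin cytoskeleton inside it. Alpha-v receptors recognise an RGD sequence in ligands such as fibronectin and the latency peptide of TGF-beta. The pairs of alpha-v with the products of *Itgb6* and *Itgb8* are known for releasing active TGF-beta from its latent form. The product of *Itgb6* pairs with no other alpha subunit and is restricted to epithelium. Laminin receptors hold tubule cells on their basement membrane.

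The 10 genes differed widely in level in mDCT15 cells. *Itgb1* had the highest level at 2945 mean normalized counts per kilobase, followed by *Itga3*, *Itgb5* and *Itgav* at 796, 396 and 309 in the same unit. *Itgb6*, *Itgb3* and *Itga6* formed a middle group at 94.5, 87.2 and 53.8 per kilobase. *Itgb8* lay next to the median of all genes at 29.9 per kilobase. *Itgb4* and *Itga2* were low, at 5.00 and 0.788 per kilobase. Of the 10 genes, 8 were above the median level per kilobase, a line that 50% of all genes pass by definition, and their median percentile was 68.2. Among protein-coding genes alone, still with all exons, 6 of the 10 were above the median. With the coding length in place of all exons, which also leaves out genes with no coding sequence, 4 of the 10 were above the median. These 4, *Itgb1*, *Itga3*, *Itgb5* and *Itgav*, were above it in each of 5 alternative rankings, while *Itgb6* was below it in 1, *Itgb3* in 2, *Itga6* in 3 and *Itgb8* in 4 of them.

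**Figure D1:**
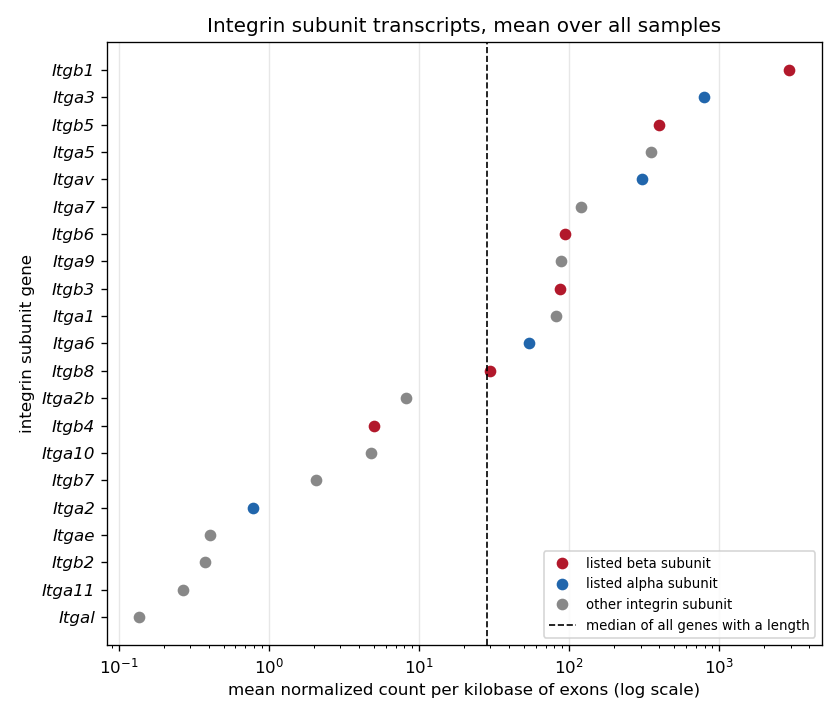
Mean normalized count per kilobase of exons, on a log axis, of the 10 integrin genes (beta subunits red, alpha subunits blue) and of the 11 other integrin subunits analysed (grey), each point the mean over all samples with no error available. *Itgb1* stands at 2945 and *Itga2* at 0.788, on either side of the median of all genes at 28.6 (dashed line).

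Coding stretches of the beta chains are printed first, because the tail they encode links the receptor to talin and kindlin inside the cell. The sequences come from the GENCODE transcripts of GRCm39, and the transcript marked canonical was used for each gene. They run 5′ to 3′ on the coding strand, with the codons of an NPxY motif in capitals (the residues asparagine, proline, any, tyrosine, searched in frame over the whole coding sequence). The motif closest to the transmembrane part of the tail is shown:

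Itgb1: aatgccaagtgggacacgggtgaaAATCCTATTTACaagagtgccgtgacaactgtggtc

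Itgb3: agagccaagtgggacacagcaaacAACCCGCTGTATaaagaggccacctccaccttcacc

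Itgb5: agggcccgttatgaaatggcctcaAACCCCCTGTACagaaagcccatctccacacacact

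Itgb6: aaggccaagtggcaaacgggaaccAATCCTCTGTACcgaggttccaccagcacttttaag

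The printed motifs of *Itgb1* and *Itgb3* begin 19 residues from the end of the protein, that of *Itgb5* 29 and that of *Itgb6* 30. Each lies in the last exon, at chromosome 8 from 129458510 to 129458521 for *Itgb1*, chromosome 11 from 104557912 to 104557923 for *Itgb3*, chromosome 16 from 33769033 to 33769044 for *Itgb5* and chromosome 2 from 60430910 to 60430921 for *Itgb6*. *Itgb1* holds another match nearer its end, 7 residues from it, and *Itgb3* a further match far outside the tail. *Itgb8* and *Itgb4* had 0 matches in proteins of 767 and 1752 residues.

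The alpha chains share another element, the GFFKR motif next to the membrane, which is shown for all 4 alpha genes because it is the stretch they have in common. The capitals mark its codons:

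Itgav: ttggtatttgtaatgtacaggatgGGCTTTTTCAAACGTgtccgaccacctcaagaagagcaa

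Itga2: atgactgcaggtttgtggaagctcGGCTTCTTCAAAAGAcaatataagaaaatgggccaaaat

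Itga3: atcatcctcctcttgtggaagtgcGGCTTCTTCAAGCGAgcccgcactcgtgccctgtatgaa

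Itga6: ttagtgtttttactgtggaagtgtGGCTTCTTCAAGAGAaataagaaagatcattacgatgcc

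The motif was found once in each, 25 residues from the end of the protein of *Itga2* and between 30 and 35 residues from the end in the others. The codons differ between the genes although the residues are the same. The longest exact run shared by the coding sequences of any pair of the 10 genes was 20 bases, between *Itga3* and *Itga6*, followed by 19 between *Itgb6* and *Itgb1*. The reads were pairs of 42 bases, so no canonical coding stretch as long as a read was common to any pair of them on the same strand. Over all their transcripts and both strands, *Itgb3* and *Itga2* did share windows of 42 bases.

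*Itgav* encodes the alpha chain that all the RGD-binding partners listed here share. It is encoded on chromosome 2, plus strand, between 83554403 and 83637260 of GRCm39 (ENSMUSG00000027087), the build of all positions given here, with 12334 bases of exon. Its authors' mean normalized count was 3805, or 309 per kilobase, at percentile 89.9. *Itgb5*, the receptor chain for vitronectin in many epithelial cells, lies on chromosome 16 from 33649988 to 33771137 (ENSMUSG00000022817). It had 2799 mean normalized counts, or 396 per kilobase, at percentile 92.7. The level of *Itgb5* per kilobase was 1.29 times that of *Itgav*, and 0.941 times with the coding length, so the order of these neighbours depends on the length used.

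*Itgb6* (ENSMUSG00000026971) is encoded on chromosome 2, minus strand, between 60428636 and 60553035. It had a mean normalized count of 693 over 7328 bases of exon, which is 94.5 per kilobase and percentile 69.0. *Itgb3*, known from platelets and osteoclasts and also found in cultured adherent cells, lies on chromosome 11 from 104498826 to 104561302 (ENSMUSG00000020689). At a mean normalized count of 577, its level was 87.2 per kilobase, at percentile 67.5. The pooled level of *Itgb6* was 1.08 times that of *Itgb3*, and over the other lengths tried 1.08 to 1.38 times. The pooled means carry no replicate error with which to separate them.

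*Itgb8*, whose product with alpha-v binds latent TGF-beta without a link to talin, is encoded on chromosome 12, minus strand, between 119121748 and 119202584 (ENSMUSG00000025321). Its mean normalized count was 337 over 11266 bases, or 29.9 per kilobase. *Itgb6* was at 3.16 times its level per kilobase, with a range of 2.13 to 3.48 over the lengths. At percentile 50.6 it cannot be placed above or below the middle of all genes, and the alternative rankings put it as low as 28.1.

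*Itgb1* is the common beta chain of most matrix receptors and pairs with alpha-v among many others. It lies on chromosome 8 from 129411876 to 129460618 (ENSMUSG00000025809). Its mean normalized count was 17585 over 5970 bases of exon, and its level of 2945 per kilobase ranked 80 of 20122 genes. This was 7.43 times the level of *Itgb5* and 9.55 times that of *Itgav*, the highest ratios over the lengths tried, which went down to 4.07 and 5.94 times. Of the summed level per kilobase of the 5 alpha-v partners, *Itgb1* made up 82.9%, *Itgb5* 11.2%, *Itgb6* 2.66%, *Itgb3* 2.45% and *Itgb8* 0.842%. Among the 4 partners other than *Itgb1*, which bind alpha-v alone or, for *Itgb3*, few others, *Itgb5* made up 65.2%, *Itgb6* 15.5%, *Itgb3* 14.3% and *Itgb8* 4.92%. These are shares of transcripts, and how the chains pair as proteins was not measured.

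**Figure D2:**
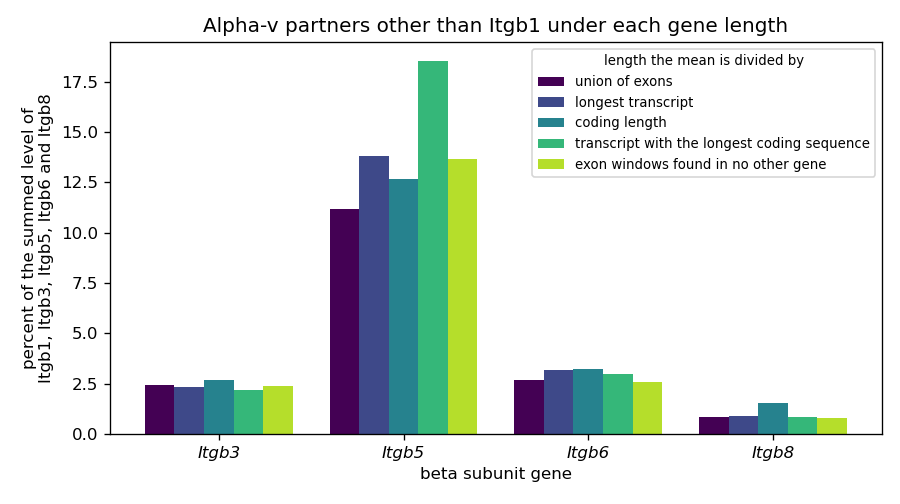
Percent of the summed level per kilobase of *Itgb1*, *Itgb3*, *Itgb5*, *Itgb6* and *Itgb8* taken by each partner other than *Itgb1* (bars, mean over all samples), under 5 ways of setting the gene length. *Itgb5* is the highest bar throughout, from 11.2% to 18.5%, and *Itgb8* the lowest, at 1.52% or less.

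The laminin receptor chains differed widely. *Itga3*, which pairs with the product of *Itgb1* and binds laminins of basement membranes, is encoded on chromosome 11, minus strand, between 94935296 and 94967682 (ENSMUSG00000001507). It had a mean normalized count of 4637, or 796 per kilobase, at percentile 97.4. *Itga6*, a laminin receptor chain that pairs with the product of *Itgb1* or *Itgb4*, lies on chromosome 2 from 71575960 to 71689757 (ENSMUSG00000027111). Its mean normalized count was 612 and its level 53.8 per kilobase, at percentile 58.9. The level of *Itga3* was 14.8 times that of *Itga6*, and 5.32 times with the length that brought them closest.

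*Itgb4*, the hemidesmosome chain that pairs with the product of *Itga6* alone, lies on chromosome 11 from 115865333 to 115899239 (ENSMUSG00000020758). Its mean normalized count was 36.1 over 7218 bases, or 5.00 per kilobase, at percentile 30.4. *Itgb1* was 589 times as high per kilobase, with a range of 508 to 1091 over the lengths. *Itga6* was 10.8 times as high, with a range of 9.76 to 32.2. Of the exon bases of *Itgb4*, 14.9% overlap *Galk1* on the opposite strand, whose mean normalized count was 837. The strand setting of the counting is given only as the default of the tool, and the part that reads of *Galk1* have in the count of *Itgb4* was not tested.

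*Itga2* encodes the collagen receptor chain that pairs with the product of *Itgb1*. It is encoded on chromosome 13, minus strand, between 114969617 and 115068636 (ENSMUSG00000015533). Its mean normalized count was 5.62 over 7133 bases, or 0.788 per kilobase, and it was the lowest of the 10, at percentile 9.99. It overlaps *Mocs2* on the opposite strand over 6.23% of its exon bases, and *Mocs2* had a mean normalized count of 375. A mean this low over all samples can come from few reads, and the number of reads in each sample is not known. Among the 4 alpha genes, *Itga3* made up 68.7% of the summed level per kilobase, *Itgav* 26.6%, *Itga6* 4.64% and *Itga2* 0.0680%. With the coding length the share of *Itga3* was 50.9% and that of *Itgav* 42.7%, and with the transcript of the longest coding sequence the share of *Itga6* was 10.9%.

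**Figure D3:**
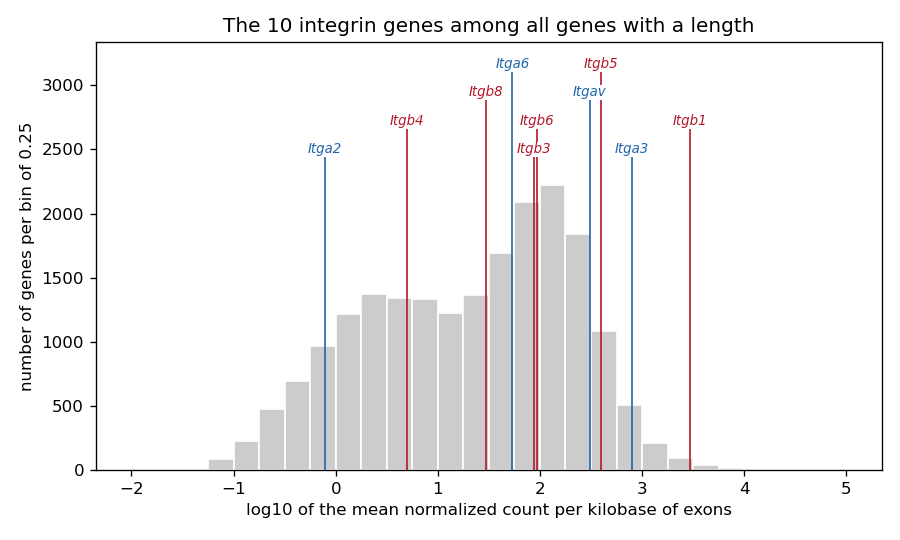
Number of genes in each bin of 0.25 of the log10 mean normalized count per kilobase, for the 20122 genes with a length (grey bars), with the 10 integrin genes marked by lines (beta red, alpha blue). *Itgb1* lies in the far upper tail, *Itga3*, *Itgb5* and *Itgav* on the upper slope, and *Itga2* and *Itgb4* in the lower part.

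The other integrin subunits place these levels within the family. Of 17 further subunits looked for, 11 were analysed, with *Itgb2* and *Itgb7* the only beta chains among them. Of the 11, 4 were above the median level per kilobase, all of them alpha chains. With the coding length, ranked among genes with a coding sequence only, 2 were. *Itga5*, the fibronectin receptor chain, stood at 350 per kilobase, between *Itgb5* and *Itgav*. *Itga7*, a laminin receptor chain best known from muscle, stood at 121, *Itga9* at 87.9 and *Itga1*, another collagen receptor chain, at 81.4 per kilobase. The level of *Itga1* can be set beside the 0.788 of *Itga2*. The leukocyte chains *Itgb2*, *Itgal* and *Itgae* had mean normalized counts of 1.21, 0.904 and 2.51, and 5 of the 11 had a mean under 10.

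Genes of latent TGF-beta, its binding proteins and matrix ligands of the alpha-v receptors were looked for next. Of 21 such genes, 18 were analysed and 15 were above the median level per kilobase, with a median percentile of 80.3. The highest were *Ccn1* at 9190 per kilobase, *Fn1* (fibronectin) at 1663, *Thbs1* (thrombospondin) at 1641 and *Ccn2* at 1529. *Tnc* (tenascin) and *Spp1* (osteopontin) stood at 399 and 215 per kilobase. *Tgfb1* and *Tgfb3*, whose latency peptides are held by the alpha-v pairs of *Itgb6* and *Itgb8*, stood at 127 and 117 per kilobase, and *Tgfb2* at 37.1. *Vtn*, the vitronectin gene, was not among the 20624 genes with a row.

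The RGD codons of both latency peptides are shown, in capitals, because they are what the alpha-v receptors bind:

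Tgfb1: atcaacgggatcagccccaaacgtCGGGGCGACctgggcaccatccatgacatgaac

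Tgfb3: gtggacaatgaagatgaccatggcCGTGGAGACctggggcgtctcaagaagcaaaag

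They lie in exon 5 of 7 of each gene, at chromosome 7 from 25396567 to 25396575 and at chromosome 12 from 86108939 to 86108947 of GRCm39. In the canonical coding sequences, *Tgfb2* had 0 matches to RGD, and *Tnc* also had 0 in the mouse sequence used. *Spp1*, *Thbs1*, *Npnt* and *Mfge8* had 1 match each and *Fn1* had 2.

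Of 10 laminin chain genes analysed, 5 were above the median level per kilobase: *Lamb1* at 945, *Lama5* at 712, *Lamc1* at 613, *Lamb2* at 433 and *Lama1* at 120. *Lama3* and *Lamb3*, laminin chain genes of epithelial basement membranes, stood at 3.17 and 7.71 per kilobase, both below the median, and so was *Itgb4*. Of 15 collagen genes, 10 were above the median, led by *Col18a1* at 2047, *Col4a5* at 695, *Col4a4* at 390 and *Col4a1* at 340 per kilobase. The 5 fibrillar collagen genes of the list were uneven, with *Col5a1* at 323 and *Col1a1* at 30.5 per kilobase, and *Col5a2*, *Col3a1* and *Col1a2* at mean normalized counts of 8.33, 2.44 and 2.71.

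Inside the cell, 20 of 25 adaptor genes analysed were above the median, with a median percentile of 91.1. *Flna* (filamin) stood at 2980, *Tln1* (talin) at 1185, *Vcl* (vinculin) at 1155 and *Actn4* at 855 per kilobase. The level of *Tln1* lay between those of *Itgb1* and *Itga3*. *Ilk*, whose product helps to join the tail to actin, stood at 783 and *Fermt2*, a kindlin gene, at 369 per kilobase. Of 8 hemidesmosome and tetraspanin partner genes, the hemidesmosome gene *Col17a1* and the keratin gene *Krt5* were not among the 20624 genes with a row. The other 6 were analysed, and 5 of them were above the median. The highest were *Plec* (plectin) at 850, *Cd81* at 850, *Cd9* at 729 and *Cd151* at 328 per kilobase. *Dst* was also above the median, at 239 per kilobase. *Krt14* had a mean normalized count of 1.37.

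**Figure D4:**
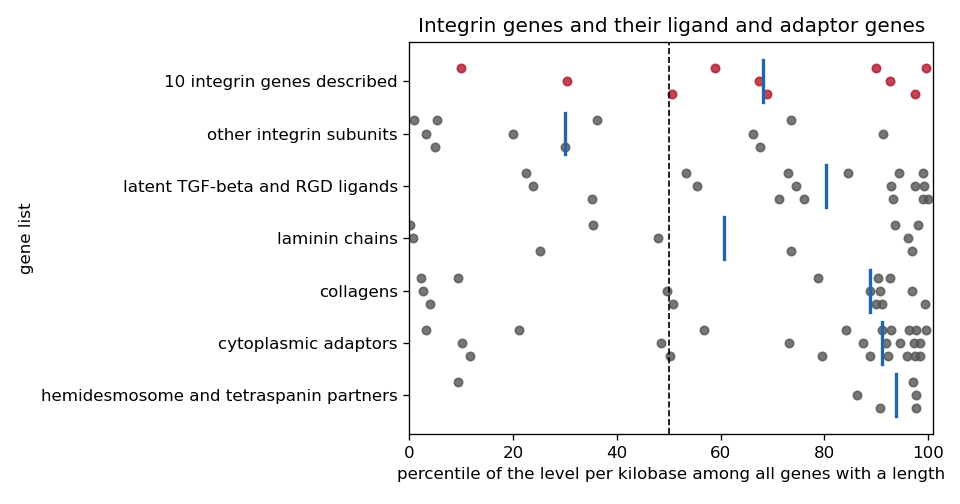
Percentile of the level per kilobase among all genes with a length (horizontal axis) for each analysed gene (points) of the 10 integrin genes and of 6 lists of related genes, with the median of each list as a blue line and the middle of all genes dashed. The medians run from 29.9 for the other integrin subunits to 93.9 for the hemidesmosome and tetraspanin partners, and the 10 integrin genes have a median of 68.2. Listed genes without a row have no part in a median, among them 6 of 17 other subunits and 2 of 8 hemidesmosome and tetraspanin partners.

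The label of a distal convoluted tubule cell was checked against its markers. Of 14 marker genes, 9 were analysed and 5 were above the median level per kilobase, *Wnk1*, *Cnnm2*, *Wnk4*, *Kcnj16* and *Stk39*, while *Trpm6* and *Egf* stood at 3.72 and 3.95 per kilobase. The defining transporter gene *Slc12a3* was not among the 20624 genes with a row, nor was *Pvalb*. Of 7 epithelium markers looked for, 3 were analysed and 2 were above the median. They were *Cdh16*, a kidney epithelial cadherin gene, at 1125 and *Epcam* at 44.6 per kilobase, and *Krt8* had a mean normalized count of 0.980. *Cdh1*, *Cldn7*, *Krt18* and *Krt19* were also not among the 20624 genes. Of 5 markers of other nephron segments, 2 were analysed and 1 was above the median. This was *Lrp2*, the megalin gene of the proximal tubule, at 528 per kilobase, while *Slc34a1* had a mean normalized count of 2.04. *Aqp2*, *Slc12a1* and *Umod* were not among the 20624 genes. Of 6 fibroblast or mesenchyme markers, 3 were above the median, *Vim* (vimentin) at 3672, *Acta2* at 34.2 and *Col1a1* at 30.5 per kilobase. Of 4 endothelium markers, 2 were analysed and 0 were above the median, with mean normalized counts of 4.68 for *Pecam1* and 1.04 for *Tek*. Of 5 leukocyte and platelet markers, 3 were analysed and 1 was above the median, *Cd68* at 30.6 per kilobase. *Ptprc* had a mean normalized count of 5.36. Several of these counts were lower when genes with a mean under 10 were left out: 3 for the distal convoluted tubule, 1 for epithelium, 1 for mesenchyme and 0 for leukocytes and platelets, and the last 3 were the same among protein-coding genes alone. All samples came from the mDCT15 cell line. How these markers relate to the integrin levels was not tested.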

How the data were processed

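The authors trimmed paired reads of 42 bases with Trim Galore 0.4.5, mapped them with STAR 2.7.5a to GRCm39 (Ensembl release 105), counted them with HTSeq 0.11.0 at default parameters and used DESeq2 1.22.0, under R 3.5.3, for normalization and for their own genotype comparison. The deposited table holds 1 mean normalized count per gene, a signal that the authors divided by library size factors and averaged over all samples, and 5 columns of the authors' own comparison (fold change, its error, a test statistic and p-values), which were not used here. The planned test between genotypes needs counts per sample and was not run. The 1 value column used names no sample and was taken as the mean over all 6.

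Members were found by symbol and matched by identifier to GENCODE M39 on GRCm39, in which 20122 identifiers (97.6%) had a length. The mean was divided by the union of exons in kilobases and ranked. Motifs were searched in translated canonical coding sequences, and 42-base windows of all transcripts of the 10 genes in the transcripts of all other genes on both strands. The division by length and the ranking were run on simulated counts made from set levels and lengths. The levels come back by construction, so this checks the arithmetic only. Of 10 reference genes, 10 were above the median level, with percentiles from 91.5 to 100.0 and *Actb*, *Eef2*, *Eef1a1* and *Tubb5* highest. Members and lists were chosen with earlier results of these data known. Named were all 10 genes, the other integrin subunits above the median and the highest 4 of each list with a few ligands; other genes were named after their values were seen. Alternatives were other gene lengths, protein-coding genes alone and a minimum mean of 10. Python 3.11.15, numpy 2.4.6, pandas 2.3.3 and matplotlib 3.10.9 were used.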

Additional observations from a re-analysis of the deposited data

How the results depend on the processing

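With the coding length, 4 of the 10 integrin genes and 2 of the other subunits were above the median level per kilobase. That ranking, like the one with the transcript of the longest coding sequence, holds only genes with a coding sequence. Among protein-coding genes alone, with all exons, 6 of the 10 and 4 of the other subunits were above the median. When genes with a mean under 10 were left out, 3 distal convoluted tubule markers were above the median. With that filter, and also among protein-coding genes alone, 1 epithelium marker, 1 mesenchyme marker and 0 leukocyte and platelet markers were above it. The share of *Itgb1* among the alpha-v partners was 79.7% with the longest transcript, 79.9% with the coding length, 75.5% with the transcript of the longest coding sequence and 80.5% over exon windows found in no other gene. The share of *Itga3* among the alpha genes was 59.9%, 50.9% and 58.0% with the first 3 of these lengths. *Itgb1* and *Itga3* stayed highest, and *Itgb8*, *Itgb4* and *Itga2* lowest, under all 5 lengths, while *Itga6* moved above *Itgb6* and *Itgb3* with the transcript of the longest coding sequence. With the coding length *Itgav* moved above *Itgb5*. The coding length is shorter than the exons in each of the 10 genes and raised all 10 levels. For the ligand, laminin, collagen, adaptor, hemidesmosome, reference and marker lists only the choice of protein-coding genes and the minimum mean were tried, and the list counts not given above stayed within 1.5 times under both. The cause was not tested.

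No paired analysis was possible because the value analysed is a mean over all samples. The comparison planned for counts per sample, with its other test, filter, left-out replicates and block, was not run for the same reason. With no spread and unknown depth, no level here has an error.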

Other observations

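Windows of 42 bases from the transcripts of the 10 genes were looked for in the transcripts of all other genes, on either strand. *Itgb1* and *Itgb8* had 0 windows found elsewhere. *Itgb5* had the largest share, 20.7%, found in transcripts of 282 other genes, and *Itgb4* followed with 13.9%, in 13 other genes. The remaining shares ran from 0.259% for *Itgb3* to 6.38% for *Itga3*. Within the 10 genes, *Itgb3* and *Itga2* each had windows found in the other.

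A minimum count per sample and gene is part of the stated methods. The table holds 5385 genes (26.1%) with a mean normalized count under 5, down to 0.618. *Gm26917* alone made up 6.29% of the sum of all means and *Gm42418* 1.79%, and these rows had no length in the annotation used.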
